A study of Arabidopsis thaliana with 24 samples.

Results

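The genes described are the 9 growth-regulating factor genes of Arabidopsis thaliana, GRF1 (AT2G22840), GRF2 (AT4G37740), GRF3 (AT2G36400), GRF4 (AT3G52910), GRF5 (AT3G13960), GRF6 (AT2G06200), GRF7 (AT5G53660), GRF8 (AT4G24150) and GRF9 (AT2G45480), and GIF1 (AT5G28640), also known as ANGUSTIFOLIA3. They were chosen by name, as the whole GRF transcription factor family together with its best-known coactivator, and make up 10 of the 34212 genes in the deposited table of counts. The table holds 24 RNA-seq libraries of main root segments, cut from 0.5 to 2 cm below the junction of root and hypocotyl, in 8 groups of 3 libraries. Plants were 9 d old when they were moved to EST (5 µM estradiol), BAP (1 µM 6-benzylaminopurine, a synthetic cytokinin), EST + BAP (both) or DMSO (the solvent control), and were harvested after 4 or 24 h, with a separate experiment for each time. Every group, the DMSO controls included, carried the same homozygous transgene, pANT:XVE>>axr3-1-YFP. In this line the AINTEGUMENTA promoter drives XVE, an estradiol-activated transcription factor, so that estradiol switches on axr3-1, a stabilised form of an auxin response repressor, in the cells where that promoter is active. It is 1 insertion line, with no other line beside it. Whole root segments were used, and in such bulk samples fewer cells of a type and less RNA per cell cannot be told apart. Per the methods, treatment and harvest were carried out 3 times at each time, and the labels number the 3 libraries of a group without saying that a number marks 1 such run.

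GRF proteins bind DNA and, together with GIF coactivators that lack a DNA-binding domain, recruit SWI/SNF chromatin remodelling complexes to genes that keep cells dividing in growing organs. Their dose is held down after transcription by the microRNA miR396, which pairs with a site in most GRF messages and accumulates as organs mature, while TCP factors raise miR396. In roots, GRF genes are best known from the meristem, where miR396 separates stem cells from the dividing cells around them.

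The miR396 sequences and their sites are shown because they divide the family into members with and without a matching site. Both miR396 genes of the RefSeq annotation (TAIR10.1) give a 5p strand with the same seed, bases 2 to 8, set in capitals here. The strand from MIR396A lies at chr2:4142443-4142463 on the minus strand, and that from MIR396B at chr5:13611808-13611828 on the plus strand.
miR396a-5p: tTCCACAGctttcttgaactg
miR396b-5p: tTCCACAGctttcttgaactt
A stretch within 2 edits (changed, extra or missing bases) of the full complement of miR396a was present in the transcripts of 7 of the 9 GRF genes, in each case inside the coding sequence and within 1 exon. In the longest annotated mRNA of each gene, 9 of 31464 genes (0.0286%) had such a stretch for miR396a or miR396b. Of those 9, 7 were GRF genes. The sites are given as 22-base windows on the message strand, in which capitals mark bases other than the complement of miR396a and the extra base at position 15, counted from the 5′ end. Aligned in this way, with no base missing, the windows of GRF3 and GRF4 differ from the complement in 2 places and the other 5 in 3. The 2 edits of the search were reached in those 5 by a 21-base stretch of the same window, in which a base of the complement was counted as missing.
GRF1: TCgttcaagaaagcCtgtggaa
GRF3: cCgttcaagaaagcCtgtggaa
GRF8: TCgttcaagaaagcAtgtggaa
GRF9: ACgttcaagaaagcTtgtggaa
These windows lie at chr2:9729944-9729965 on the plus strand for GRF1, at chr2:15271745-15271766 on the minus strand for GRF3, at chr4:12538649-12538670 on the plus strand for GRF8 and at chr2:18746292-18746313 on the plus strand for GRF9. GRF2 had the same window as GRF1, GRF4 the same as GRF3, and GRF7 the same as GRF8. All 7 carried every base that pairs with the miR396 seed, with the extra base between those opposite bases 7 and 8 of miR396. The closest stretch in GRF5, GRF6 and GIF1 was 6 edits away, so that no site was found in them.

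Total counts ranged from 14514022 to 45586679 per library, and counts outside organelle and ribosomal RNA genes from 6001669 to 40450292. The DMSO 24 h replicate 1 library was the shallowest on both measures, with 58.6% of its counts in organelle and ribosomal RNA genes. AXR3 counts combine the native gene and the transgene, which cannot be told apart here. AXR3 was higher in EST than in DMSO at 4 h by a log2 fold change of 1.69 (edgeR adjusted p = 0.0298), and the difference at 24 h was 0.23 (edgeR adjusted p = 0.072). BAP without estradiol also gave higher AXR3 than DMSO, by 1.74 at 4 h (edgeR adjusted p = 0.000209) and 1.51 at 24 h (edgeR adjusted p = 5.59e-06). EST + BAP against BAP at 24 h gave -0.46 (edgeR adjusted p = 0.00341), so the transgene cannot be checked from this gene at 24 h. The cambium markers ANT, WOX4 and PXY were detected in every library, with ANT between 13.1 and 244 CPM. The shoot meristem markers were at or near 0, with at most 7 counts of STM, 5 of WUS and 3 of CLV3 in any library.

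The members covered a wide range of levels, and none was abundant. Levels are given as CPM, counts per 1000000 counts of a library, scaled by the trimmed mean of M values (TMM) over the 24 libraries, and as CPM per kb of the longest annotated mRNA where genes are compared with each other. On the per-kb scale GRF1 stood highest, with a mean of 4.03 CPM per kb over the 24 libraries (SD 0.613). GIF1 at 1.83 and GRF3 at 1.82 CPM per kb followed, then GRF4 at 1.38, GRF2 at 1.24 and GRF8 at 0.821 CPM per kb. GRF6 and GRF9 were lower still, at 0.248 and 0.241 CPM per kb. GRF5 at 0.0641 and GRF7 at 0.0401 CPM per kb were close to the detection limit. The ranges over the 24 libraries overlapped for every neighbouring pair of members in this order. The other GIF coactivators were more abundant than every member, GIF2 with a mean of 17.0 and GIF3 with a mean of 6.87 CPM per kb.

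**Figure D1:**
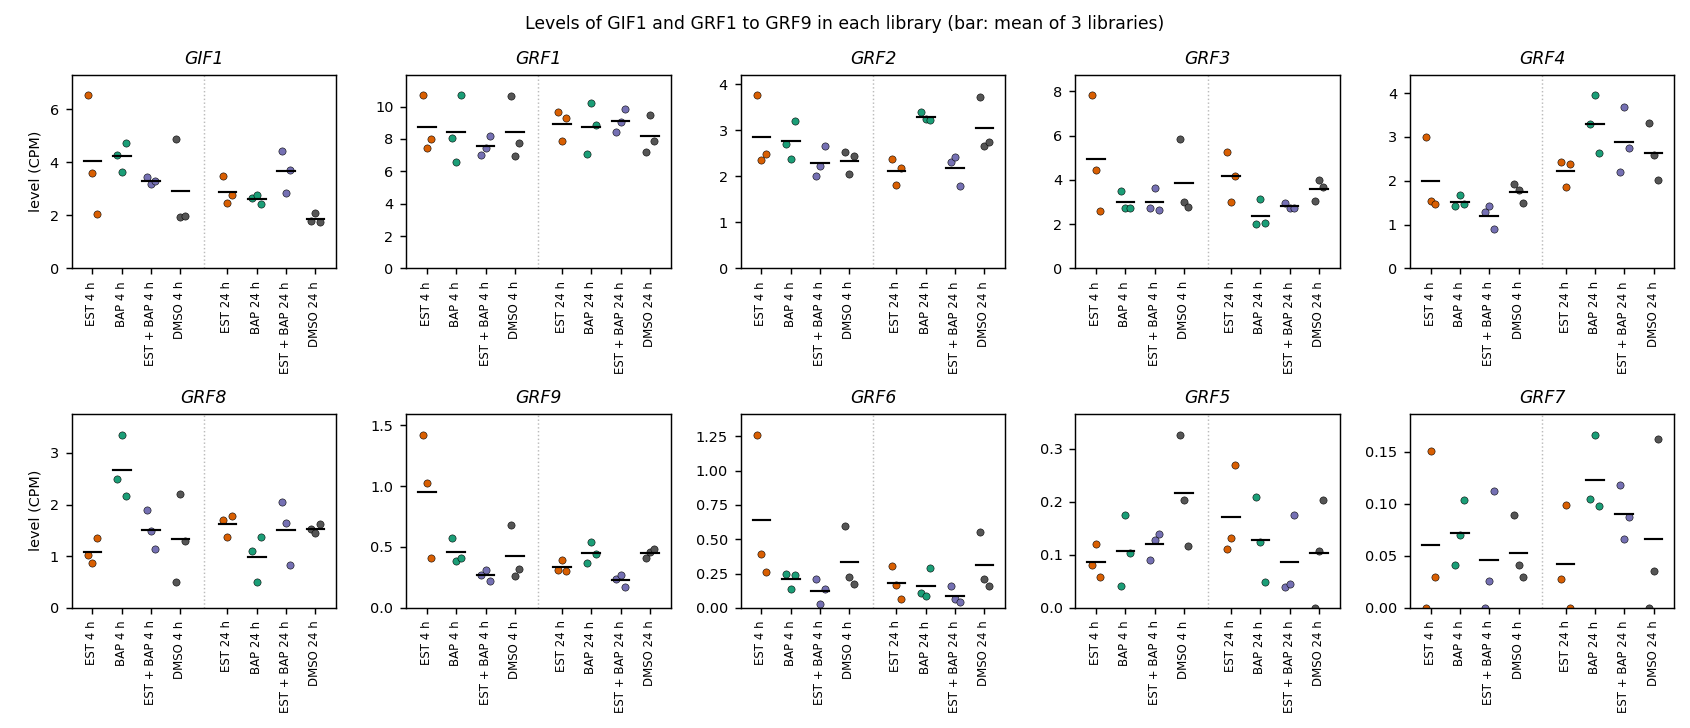
Level (CPM) of each member in each of the 24 libraries, with 1 panel per gene and its own vertical axis from 0. Points are libraries, black bars are means of 3 libraries, and EST, BAP, EST + BAP and DMSO run from left to right within 4 h and then 24 h; GIF1 shows its 3 DMSO 24 h libraries between 1.74 and 2.09 CPM, below every other 24 h library.

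GRF5 and GRF7 were too low for any test. GRF5, which promotes cell proliferation in leaves, had 0 to 11 counts per library, and GRF7, a repressor of stress-response genes, had 0 to 5 counts. GRF7 was at 0 in 4 of the 24 libraries and GRF5 in 1. GRF6 passed the filter on low counts only in the EST against DMSO comparison at 4 h and in some of the fits with 4 groups, and had 1 to 47 counts. GRF9 passed in the comparisons at 4 h and in EST and BAP against DMSO at 24 h, but not in the 3 comparisons with EST + BAP at 24 h. GRF1, GRF2, GRF3, GRF4, GRF8 and GIF1 were tested in all 14 comparisons.

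Each treatment was compared with DMSO of its own time, and EST + BAP also with BAP and with EST, to see the differences with estradiol and cytokinin alone and together. No plants without the transgene were given estradiol, so axr3-1 and estradiol itself cannot be told apart. A gene was called where its absolute log2 fold change was at least 0.5 and its adjusted p, over all genes tested, at most 0.05 in edgeR's quasi-likelihood test. The comparisons with DMSO share the same 3 control libraries at each time. The comparisons of EST + BAP likewise share the EST + BAP libraries. AXR3 was called higher in EST + BAP than in EST, by 0.83 at 4 h and 0.82 at 24 h. Whether axr3-1 differed in amount between these groups cannot be told from AXR3 counts. Of 68 tests of members in the 10 comparisons, 4 were called and 12 had an unadjusted p under 0.05.

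At 4 h none of the 36 tests of members in the 5 comparisons was called by edgeR, and 4 had an unadjusted p under 0.05. DESeq2 called 1 member and edgeR's exact test called 1, GRF9 in EST + BAP against EST in each case. GRF9 passed the filter there through the EST libraries, where it is high. The share of all tested genes called was 0.0139% for EST against DMSO, where 8 members were tested, and 16.8% for BAP against DMSO, where 7 were tested. It was 11% for EST + BAP against DMSO, 0.334% for EST + BAP against BAP and 7.54% for EST + BAP against EST, with 7 members tested in each.

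At 24 h edgeR called 4 of the 32 tests of members, DESeq2 2 and edgeR's exact test 4. EST against DMSO called 0 of 7 members, beside 15.2% of all genes, with 1 member at an unadjusted p under 0.05 and 0 called by DESeq2 or the exact test. BAP against DMSO called 1 of 7 members, beside 34.9% of all genes. EST + BAP against DMSO called 1 of 6, beside 20.5%, EST + BAP against BAP called 1 of 6, beside 23.4%, and EST + BAP against EST called 1 of 6, beside 30.3%. Each of these counts of members rests on a single gene.

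**Figure D2:**
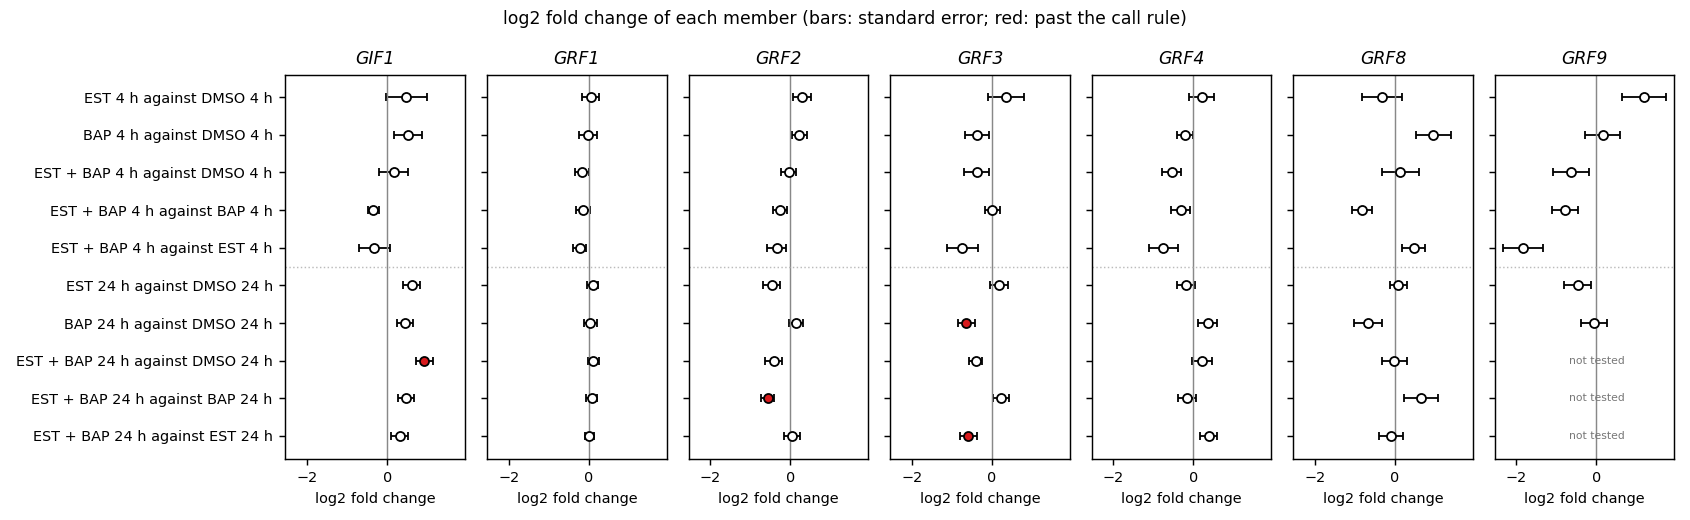
log2 fold change (horizontal axis) of the 7 members tested in most comparisons, for the 10 comparisons down the page, with bars for the standard error and red points for calls. The 4 red points are GIF1 in EST + BAP against DMSO at 24 h (0.93), GRF3 in BAP against DMSO at 24 h (-0.63), GRF2 in EST + BAP against BAP at 24 h (-0.56) and GRF3 in EST + BAP against EST at 24 h (-0.58); GRF6, tested once among them, is left out.

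GIF1, the coactivator that binds GRF proteins and promotes cell proliferation in leaves, gave the clearest difference of the group, a higher level in EST + BAP than in DMSO at 24 h. GIF1 had 4.43, 2.86 and 3.72 CPM in the EST + BAP 24 h libraries, against 1.79, 2.09 and 1.74 CPM in the DMSO 24 h libraries. All 3 treated libraries lay above all 3 controls, as for 23.4% of all genes tested in this comparison. The log2 fold change was 0.93 ± 0.22 (SE; edgeR adjusted p = 0.00976). Leaving out each library in turn kept the call in 6 of 6 fits, with adjusted p from edgeR between 0.00647 and 0.0444. Without DMSO 24 h replicate 1, the shallow library, the log2 fold change was 0.91 and the adjusted p from edgeR 0.0221.

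The single treatments gave smaller differences of GIF1 in the same direction at 24 h, neither of which was called. GIF1 had 3.49, 2.46 and 2.75 CPM in EST and 2.67, 2.79 and 2.44 CPM in BAP at 24 h, and every library of both lay above the DMSO 24 h libraries. Their log2 fold change was 0.62 ± 0.21 for EST against DMSO (SE; edgeR adjusted p = 0.0611) and 0.45 ± 0.19 for BAP against DMSO (SE; edgeR adjusted p = 0.0833). EST + BAP against BAP gave 0.48 ± 0.20 (SE; edgeR adjusted p = 0.083), with no overlap of libraries, and EST + BAP against EST gave 0.31 ± 0.21 (SE; edgeR adjusted p = 0.246), with overlap. Higher levels with no overlap were found for 20.1% of genes tested in EST and 31.2% in BAP against DMSO. In EST + BAP against BAP the share was 25.1%. The EST + BAP against BAP difference was called without EST + BAP 24 h replicate 2, at 0.65 (edgeR adjusted p = 0.0266). The interaction of EST and BAP at 24 h, which asks whether the combined difference departs from the sum of the single ones on the log2 scale, was -0.14 ± 0.28 for GIF1 (SE; edgeR adjusted p = 0.874).

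Marker levels of other root tissues were read beside the GIF1 difference at 24 h. The summed level of the cambium markers ANT, WOX4 and PXY ranged from 102 to 105 CPM in EST, 356 to 447 CPM in BAP and 216 to 248 CPM in EST + BAP, against 239 to 283 CPM in DMSO. The 6 markers of endodermis, root hairs and root meristems (CASP1, EXPA7, COBL9, PLT1, PLT2 and WOX5) summed to 14.8, 8.60 and 6.95 CPM in EST + BAP 24 h replicates 1, 2 and 3, against 8.68, 9.84 and 6.36 CPM in DMSO 24 h replicates 1, 2 and 3. The sums of both these sets overlapped between EST + BAP and DMSO, while the GIF1 levels did not. Other marker sums were higher in EST + BAP than in DMSO with no overlap, as GIF1 was. The xylem markers (VND7, XCP1 and IRX3) summed to 206 to 221 CPM in EST + BAP, against 150 to 163 CPM in DMSO. They summed to 166 to 220 CPM in EST, above DMSO, and to 119 to 131 CPM in BAP, below it. The periderm markers (MYB84 and PER15) summed to 727 to 942 CPM in EST + BAP and 998 to 1065 CPM in BAP, against 379 to 577 CPM in DMSO. In EST they summed to 219 to 293 CPM, below DMSO. PER15 made up most of these sums. MYB84 alone averaged 18.1 CPM in EST, 17.9 CPM in BAP and 23.2 CPM in EST + BAP, against 12.1 CPM in DMSO. In EST against DMSO MYB84 was called higher at 0.55 and PER15 lower at -0.90. The 2 phloem markers moved in opposite directions between EST + BAP and DMSO. SUC2 averaged 37.9 CPM in EST + BAP, against 25.5 CPM in DMSO, and was called higher at 0.59 (edgeR adjusted p = 0.0056), while APL averaged 6.04 CPM in EST + BAP, against 13.1 CPM in DMSO, and was called lower at -1.12 (edgeR adjusted p = 0.000182). The part of these tissues in the GIF1 difference was not tested.

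At 4 h, whether GIF1 was called against DMSO in BAP and in EST + BAP depended on 1 control library. GIF1 had 6.53, 3.58 and 2.05 CPM in EST, 4.29, 3.63 and 4.75 CPM in BAP and 3.46, 3.18 and 3.30 CPM in EST + BAP, against 4.87, 1.94 and 1.96 CPM in DMSO. DMSO 4 h replicate 1 stood above the other control libraries and above every BAP and EST + BAP library. The log2 fold changes were 0.48 ± 0.51 for EST, 0.53 ± 0.36 for BAP and 0.17 ± 0.36 for EST + BAP against DMSO (SE), with adjusted p from edgeR of 1, 0.322 and 0.792. Without DMSO 4 h replicate 1, BAP gave 1.11 (edgeR adjusted p = 0.0055) and EST + BAP gave 0.76 (edgeR adjusted p = 0.0332), and both were called. Without EST 4 h replicate 1, EST against DMSO gave -0.05 (edgeR adjusted p = 1).

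The high values of replicate 1 of EST and DMSO at 4 h were shared by many members and by markers of other root tissues. EST 4 h replicate 1 held the highest value of its group for 7 of the 10 members and for 6 of the 6 markers of endodermis, root hairs and root meristems. DMSO 4 h replicate 1 did so for 9 of the 10 members and 6 of the 6 markers. The summed level of these markers was 53.0, 14.8 and 7.37 CPM in EST 4 h replicates 1, 2 and 3, against 23.8, 8.55 and 3.64 CPM in DMSO 4 h replicates 1, 2 and 3. CASP1, a scaffold protein of the Casparian strip, had 27.8, 6.08 and 3.74 CPM in EST 4 h, against 12.4, 3.96 and 1.44 CPM in DMSO 4 h. WOX5, which marks the root stem cell organiser, was at 0 in 1 of the 24 libraries. In EST 24 h, replicate 1 likewise held the highest value of 6 of the 6 markers and of 6 of the 10 members. The part of other tissues in the members' levels was not tested. With replicate 1 of both EST 4 h and DMSO 4 h left out, a choice made after seeing the data, EST against DMSO gave 0.54 for GIF1, 0.29 for GRF3 and 1.30 for GRF9 (edgeR adjusted p = 1 for each).

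**Figure D3:**
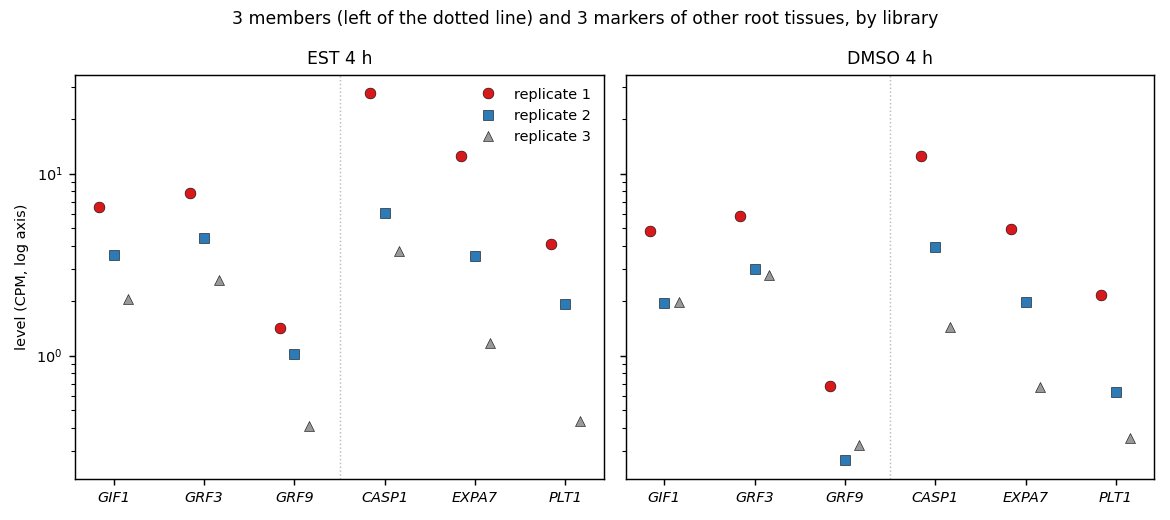
Levels (CPM, log axis) of 3 members (GIF1, GRF3 and GRF9) and 3 markers of endodermis (CASP1), root hairs (EXPA7) and root meristems (PLT1) in the 3 libraries of EST 4 h (left) and DMSO 4 h (right). Each point is a library; replicate 1 has the highest value of all 6 genes in both groups, for example 6.53 CPM of GIF1 in EST 4 h and 4.87 CPM in DMSO 4 h.

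GRF1, the most abundant GRF and one of the members that act redundantly in leaf and root growth, gave no difference between groups at either time. Its group means ran from 7.56 CPM in EST + BAP 4 h to 9.11 CPM in EST + BAP 24 h, with single libraries between 6.60 and 10.7 CPM. The log2 fold changes at 24 h were 0.10 ± 0.14 for EST, 0.04 ± 0.16 for BAP and 0.12 ± 0.13 for EST + BAP against DMSO (SE), with adjusted p from edgeR of 0.625, 0.848 and 0.525. GRF1 had the smallest standard errors of the family in these comparisons, and in the order of the 8 group means all 7 neighbouring pairs overlapped. At 4 h its log2 fold changes against DMSO lay between -0.18 for EST + BAP and 0.05 for EST, with none called by edgeR and none at an unadjusted p under 0.05.

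GRF2, which acts redundantly with GRF1 and GRF3, had lower levels at 24 h in EST + BAP than in BAP alone. GRF2 had 2.31, 2.42 and 1.79 CPM in EST + BAP, against 3.40, 3.24 and 3.22 CPM in BAP, with no overlap. The log2 fold change was -0.56 ± 0.17 (SE; edgeR adjusted p = 0.0278). Of all genes tested in this comparison, 28.4% were lower with no overlap. The call held in 1 of 6 fits that left out a library, without EST + BAP 24 h replicate 2 (edgeR adjusted p = 0.0401), and the adjusted p reached 0.0823 in edgeR without EST + BAP 24 h replicate 3. DESeq2 gave an adjusted p of 0.0611 at the same fold change, so the call lay close to the threshold.

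The same split of groups appeared in the GRF2 levels against DMSO. GRF2 had 2.37, 1.80 and 2.18 CPM in EST 24 h and 3.72, 2.65 and 2.76 CPM in DMSO 24 h. Both groups with estradiol therefore lay below both groups without it at 24 h, library by library. Their log2 fold change was -0.46 ± 0.21 for EST against DMSO (SE; edgeR adjusted p = 0.138) and -0.42 ± 0.21 for EST + BAP against DMSO (SE; edgeR adjusted p = 0.16), and neither was called. Lower levels than in DMSO with no overlap were found for 21.7% of genes tested in EST and 21.9% in EST + BAP. At 4 h, EST against DMSO gave 0.30 ± 0.23 (SE; edgeR adjusted p = 1). The EST difference at 24 h minus that at 4 h was -0.78 ± 0.31 (SE; edgeR adjusted p = 0.182).

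GRF3, a member linked in Arabidopsis to root growth and to nematode feeding sites, was lower where BAP was present at 24 h. GRF3 had 1.99, 3.12 and 2.05 CPM in BAP 24 h, against 3.03, 4.00 and 3.69 CPM in DMSO 24 h. BAP 24 h replicate 2 exceeded the lowest control, so the groups overlapped. The log2 fold change was -0.63 ± 0.22 (SE; edgeR adjusted p = 0.0399). It was called in 2 of 6 fits that left out a library, without DMSO 24 h replicate 1 (edgeR adjusted p = 0.0403) and without BAP 24 h replicate 2 (edgeR adjusted p = 0.0113). The call was lost without BAP 24 h replicate 1, BAP 24 h replicate 3, DMSO 24 h replicate 2 or DMSO 24 h replicate 3, with an adjusted p from edgeR of up to 0.131, and in DESeq2 (adjusted p = 0.0707).

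EST + BAP was compared with EST to show the difference with BAP where both groups had estradiol. ANT, whose promoter drives XVE, averaged 91.1 CPM in EST + BAP and 17.8 CPM in EST at 24 h. The amount of axr3-1 may therefore not have been the same in both groups. GRF3 had 2.94, 2.75 and 2.71 CPM in EST + BAP 24 h, against 5.28, 3.02 and 4.20 CPM in EST 24 h, with no overlap. The comparison gave a log2 fold change of -0.58 ± 0.21 (SE; edgeR adjusted p = 0.0421). Among all genes tested in it, 29% were lower with no overlap. The markers of endodermis, root hairs and root meristems in EST 24 h replicates 1, 2 and 3 summed to 16.8, 5.41 and 11.1 CPM, in the same order as the GRF3 levels, and their part in the result was not tested. The call held in 1 of 6 fits that left out a library, without EST 24 h replicate 2 (edgeR adjusted p = 0.00698). Without EST 24 h replicate 1 the log2 fold change was -0.37 (edgeR adjusted p = 0.148). EST + BAP against DMSO gave -0.40 ± 0.16 (SE; edgeR adjusted p = 0.0948), and EST against DMSO gave 0.19 ± 0.22 (SE; edgeR adjusted p = 0.583).

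GRF3 overlaps SBE2.1, a starch branching enzyme gene, and AT2G08795, both on the other strand. Together they share 28 bases of annotated exon with GRF3. AT2G08795 is not among the genes counted. SBE2.1 was more abundant, with a mean of 40.6 CPM over the 24 libraries. Its log2 fold change was -0.33 ± 0.13 in BAP against DMSO at 24 h (SE; edgeR adjusted p = 0.065) and 0.07 ± 0.16 in EST + BAP against EST at 24 h (SE; edgeR adjusted p = 0.726). The libraries were strand-specific, but the strand setting of the counting is not given in the sources used here, so reads in the shared bases cannot be told apart.

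GRF4, the closest relative of GRF3 in the family, gave no call in any comparison. GRF4 averaged 2.00 CPM in EST, 1.52 CPM in BAP and 1.21 CPM in EST + BAP at 4 h, against 1.74 CPM in DMSO. At 24 h it averaged 2.23 CPM in EST, 3.29 CPM in BAP and 2.88 CPM in EST + BAP, against 2.64 CPM in DMSO. At 4 h the EST + BAP libraries, with 1.29, 1.43 and 0.896 CPM, lay below the DMSO libraries, with 1.93, 1.80 and 1.50 CPM. The log2 fold change was -0.54 ± 0.24 (SE; edgeR adjusted p = 0.176). Of all genes tested in this comparison, 17% were lower with no overlap. In BAP against DMSO at 24 h, where GRF3 was lower, GRF4 gave 0.36 ± 0.24 (SE; edgeR adjusted p = 0.232).

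GRF8, one of the less studied members, had its highest levels in BAP at 4 h. GRF8 had 2.50, 3.35 and 2.17 CPM in BAP 4 h, against 0.505, 2.20 and 1.29 CPM in DMSO 4 h. DMSO 4 h replicate 2 lay just above the lowest BAP library. The comparison gave a log2 fold change of 0.96 ± 0.44 (SE; edgeR adjusted p = 0.15). Without DMSO 4 h replicate 2 it was 1.56 and called (edgeR adjusted p = 0.046). EST + BAP 4 h libraries, with 1.89, 1.49 and 1.15 CPM, lay below all BAP 4 h libraries, at a log2 fold change of -0.81 ± 0.25 (SE; edgeR adjusted p = 0.23). In that comparison 10.7% of all genes tested were lower with no overlap.

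At 24 h the GRF8 levels in BAP stood lowest rather than highest. GRF8 had 1.10, 0.499 and 1.36 CPM in BAP 24 h, against 1.52, 1.45 and 1.62 CPM in DMSO 24 h, with no overlap and a log2 fold change of -0.68 ± 0.35 (SE; edgeR adjusted p = 0.135). Among all genes tested there, 27.8% were lower with no overlap. The BAP difference at 24 h minus that at 4 h was -1.61 ± 0.64 (SE; edgeR adjusted p = 0.152). Without DMSO 4 h replicate 2 this change between times was -2.22 and called (edgeR adjusted p = 0.0427). The times were separate experiments, so time and experiment cannot be told apart.

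GRF9, which restrains leaf growth, had its highest levels in EST at 4 h and its lowest in EST + BAP. GRF9 had 0.270, 0.307 and 0.224 CPM in EST + BAP 4 h, against 1.42, 1.02 and 0.409 CPM in EST 4 h, with no overlap. These levels came from 9, 12 and 8 counts in EST + BAP and 53, 34 and 14 counts in EST. Of all genes tested in this comparison, 15.2% were lower with no overlap. Markers of endodermis, root hairs and root meristems all had negative log2 fold changes in the same comparison. None of them was called by edgeR, and 3 of 6 were at an unadjusted p under 0.05. The cambium and xylem markers all had positive ones, up to 1.15 and 0.36, with 1 cambium marker called higher. The periderm markers (-0.66 and 0.75) and the phloem markers (-0.49 and 0.35) were split. The part of these tissues in the GRF9 difference was not tested. The 6 markers of endodermis, root hairs and root meristems summed to 7.36, 7.86 and 3.47 CPM in EST + BAP 4 h replicates 1, 2 and 3, against 53.0, 14.8 and 7.37 CPM in EST 4 h replicates 1, 2 and 3, where replicate 1 was also highest for GRF9. CASP1 gave a log2 fold change of -2.50 (edgeR adjusted p = 0.0924), and the medians were -1.72 for the root hair markers and -1.36 for the root meristem markers. The GRF9 log2 fold change was -1.84 ± 0.49 (SE; edgeR adjusted p = 0.0614), short of the threshold. Libraries of EST and EST + BAP that shared a replicate number deviated together at 4 h, and with the replicate number as a block the log2 fold change was -1.75 and called (edgeR adjusted p = 0.0412). It was also called by DESeq2 (adjusted p = 0.0212), by edgeR's exact test (adjusted p = 0.0102), with the 4 groups of 4 h in 1 fit (edgeR adjusted p = 0.0251) and without EST 4 h replicate 3 (edgeR adjusted p = 0.0156). In this comparison GRF9 passed the filter on low counts through the EST libraries, where it is high. None of these calls is therefore support for a difference.

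The other comparisons of GRF9 at 4 h were not called. EST against DMSO gave 1.19 ± 0.55 (SE; edgeR adjusted p = 1), with 0.683, 0.265 and 0.322 CPM in DMSO 4 h. EST + BAP against BAP gave -0.79 ± 0.32 (SE; edgeR adjusted p = 0.366), with 0.574, 0.384 and 0.413 CPM in BAP 4 h and no overlap. Among all genes tested there, 10.7% were lower with no overlap. At 24 h GRF9 had 0.235, 0.266 and 0.175 CPM in EST + BAP, below the 9 other libraries, which held 0.302 to 0.393 CPM in EST, 0.366 to 0.541 CPM in BAP and 0.413 to 0.486 CPM in DMSO. These levels came from 4 to 12 counts in EST + BAP, against 3 to 13 counts in DMSO, too few to pass the filter in that comparison. Of genes tested at 24 h, 21.9% were lower with no overlap in EST + BAP than in DMSO. The share was 28.4% against BAP and 29% against EST. With the 4 groups of 24 h in 1 fit, EST + BAP against DMSO gave -0.98 (edgeR adjusted p = 0.0487), and without the filter it gave -0.98 (edgeR adjusted p = 0.162). GRF9 entered the fit with 4 groups only with the EST and BAP libraries included. The call made there is no support for a difference. GRF9 shares 25 bases of annotated exon with AUR3, an Aurora kinase gene of mitosis on the other strand, whose mean was 3.19 CPM. AUR3 gave 0.36 ± 0.17 in EST + BAP against EST at 4 h (SE; edgeR adjusted p = 0.21), opposite in sign to GRF9.

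GRF6, a member without a miR396 site, had 1.26, 0.391 and 0.263 CPM in EST 4 h, against 0.594, 0.225 and 0.176 CPM in DMSO 4 h. Replicate 1 was highest in both groups, as for the tissue markers, and the groups overlapped. The comparison gave a log2 fold change of 0.98 ± 0.71 (SE; edgeR adjusted p = 1). GRF6 had 7, 1 and 5 counts in EST + BAP 4 h, against 47, 13 and 9 counts in EST 4 h, and did not pass the filter in that comparison. It entered the fit with the 4 groups of 4 h through the libraries where it is high, so the call made there in EST + BAP against EST is no support for a difference.

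No interaction or change between times was called for a member by edgeR, in 30 tests, of which 4 had an unadjusted p under 0.05. DESeq2 called none of them either. The share of all tested genes called was 0% for the interaction of EST and BAP at 4 h, where 893 of 21933 genes had an unadjusted p under 0.05, and 1.4% at 24 h. It was 5.18% for the EST difference between times and 6.82% for the BAP difference between times. The largest of these member values were for GRF9. Its interaction of EST and BAP at 4 h was -1.99 ± 0.69 (SE; edgeR adjusted p = 0.959), and its EST difference at 24 h minus that at 4 h was -1.66 ± 0.69 (SE; edgeR adjusted p = 0.196). These values leave the size of any interaction loosely set, since a standard error of 0.69 allows a wide range of differences.

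**Figure D4:**
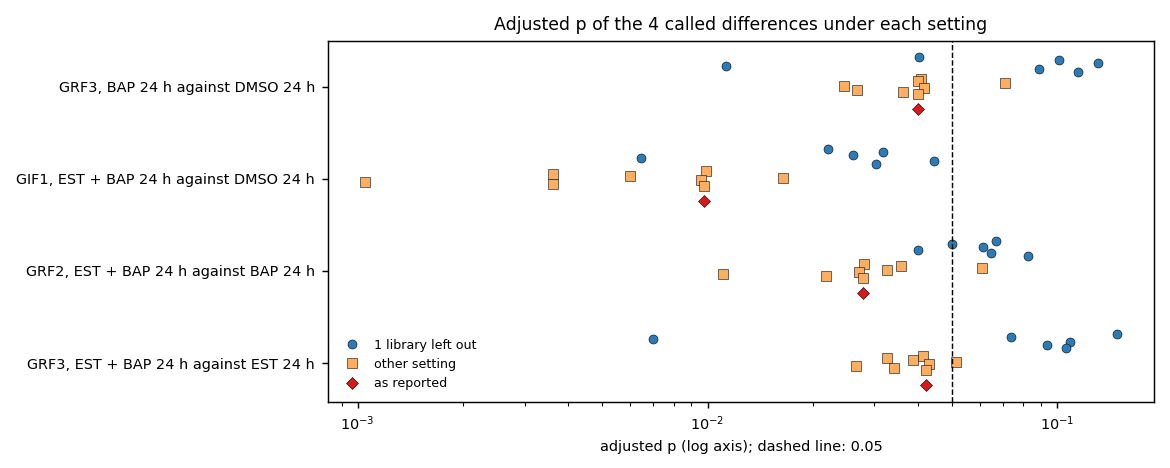
Adjusted p (log axis) of the 4 called differences, as reported (red diamonds), with 1 library left out (blue circles) and under the other settings (orange squares), with the dashed line at 0.05. GIF1 in EST + BAP against DMSO at 24 h stayed between 0.00105 and 0.0444, while the other 3 differences each had points on both sides of the line.

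The genes that work with the GRF family were read from lists of partners and regulators. GIF2 and GIF3, the other GIF coactivators, were not called by edgeR in any of the 10 comparisons, with 1 of them at an unadjusted p under 0.05 in EST against DMSO and in EST + BAP against EST at 4 h. GIF2 stayed between 16.1 and 23.7 CPM over the 24 libraries and GIF3 between 7.16 and 11.9 CPM. None of the 11 SWI/SNF subunits, among them the ATPases BRM and SYD, was called by edgeR in any of the 10 comparisons. In EST + BAP against EST at 24 h, 4 of the 11 had an unadjusted p under 0.05, beside 12023 of all 21490 genes tested.

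MIR396B, the precursor gene of 1 of the miR396 sequences above, was higher with BAP at 24 h. MIR396B had 1.88, 1.75 and 2.58 CPM in EST + BAP and 1.36, 1.91 and 2.34 CPM in BAP, against 0.413, 0.814 and 1.26 CPM in DMSO at 24 h, where the lowest control came from 3 counts. All libraries with BAP lay above all DMSO libraries, as for 31.2% of genes tested in BAP and 23.4% in EST + BAP. The log2 fold change was 1.00 ± 0.34 for BAP (SE; edgeR adjusted p = 0.0371) and 1.14 ± 0.32 for EST + BAP (SE; edgeR adjusted p = 0.022) against DMSO. EST + BAP was also higher than EST, which had 1.03, 1.54 and 1.04 CPM, by 0.76 ± 0.25 (SE; edgeR adjusted p = 0.032). These MIR396B calls were not checked with libraries left out or under other settings. MIR396A was not called in any of the 10 comparisons, with 0.35 ± 0.29 in BAP against DMSO at 24 h (SE; edgeR adjusted p = 0.343). Of the GRF genes with a miR396 site, only GRF3 was called lower in BAP against DMSO at 24 h, and the mature miR396 was not measured.

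Of the 5 CIN-type TCP genes, which limit cell proliferation in leaves, 1 was called in any of the 10 comparisons, TCP3, with a log2 fold change of -0.55 in EST + BAP against BAP at 24 h (edgeR adjusted p = 0.047). In that comparison 23.4% of all genes were called. GIF1 is known to bind HEC1, COL5, ARR4 and CRF2 in leaves, and COL5, ARR4 and CRF2 were called in EST + BAP against DMSO at 24 h, beside 20.5% of all genes. ARR4, a cytokinin response regulator, was higher by 1.01 ± 0.18 (SE; edgeR adjusted p = 0.0024). COL5 was lower at -0.68 ± 0.11 (SE; edgeR adjusted p = 0.00141), and CRF2, a cytokinin response factor, was lower at -0.87 ± 0.22 (SE; edgeR adjusted p = 0.0126). HEC1 had 19, 39 and 17 counts in EST + BAP, against 3, 2 and 2 counts in DMSO. It passed the filter on low counts only in the comparisons with EST + BAP at 24 h, the group where it is high, so its test there is no support for a difference. ARR4 was also higher in BAP alone, by 1.13 ± 0.19 (SE; edgeR adjusted p = 0.00102). GIF1 gave 0.45 in BAP against DMSO at 24 h and was not called. The part of GIF1 in these differences was not tested.

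Mitotic genes, which GRF activity is known to promote, were read beside the members, with no test of the difference between the lists. At 4 h, none of 10 was called in EST against DMSO, with 1 at an unadjusted p under 0.05 and log2 fold changes between -0.30 and -0.06. At that time 3 were called higher in BAP against DMSO, with values up to 1.00, and 3 in EST + BAP against EST, with values up to 0.82. Of all genes, 0.0139% were called in EST against DMSO, 16.8% in BAP against DMSO and 7.54% in EST + BAP against EST. In EST + BAP against DMSO 1 mitotic gene was called higher, beside 11% of all genes. In EST + BAP against BAP 1 was called lower, beside 0.334%, and all 10 log2 fold changes were below 0. Of the 10 mitotic cyclin, kinase and cytokinesis genes, 7 were called lower in EST against DMSO at 24 h, and their median log2 fold change was -0.77. In BAP against DMSO at 24 h 10 of 10 were called higher, with a median of 1.65, and in EST + BAP against DMSO 6 were called higher, with a median of 0.60. In EST + BAP against BAP at 24 h 10 of 10 were called lower, with a median of -1.17, and in EST + BAP against EST 10 of 10 were called higher, with a median of 1.36. The medians over all genes tested in these 5 comparisons at 24 h lay between -0.02 and 0.01. The share of all genes called at 24 h was 15.2% for EST, 34.9% for BAP and 20.5% for EST + BAP against DMSO. For EST + BAP it was 23.4% against BAP and 30.3% against EST. KNOLLE, the syntaxin of cytokinesis, gave 1.78 ± 0.13 in BAP against DMSO at 24 h (SE; edgeR adjusted p = 1.47e-05). No GRF gene was called higher there, and neither was GIF1, which gave 0.45.

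The members varied only partly together over the 24 libraries. With the mean of each time removed, log2 CPM of GRF6 and GRF9 had the highest correlation among the 8 members that passed the filter over all libraries (r = 0.67 over 24 libraries), and GRF1 and GRF8 the lowest (r = -0.45 over 24 libraries). GIF1 was closest to GRF1 among the members (r = 0.58 over 24 libraries). Among 22445 other genes, those most like GIF1 were AT1G28310 (r = 0.88), COBL5 (r = 0.86), AT4G23590 (r = 0.84), ATCSLB05 (r = 0.83) and AGP14 (r = 0.82). Those most like GRF1 were RSL1, a factor of root hair development (r = 0.76), MIR160c (r = 0.72), AT3G25545 (r = 0.71), PLT2 (r = 0.67) and AT1G73160 (r = 0.67). These are descriptions over libraries that share treatments and the high replicate 1 libraries of EST 4 h and DMSO 4 h.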

How the data were processed

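The authors trimmed reads with Trimmomatic 0.36 and quantified them with Kallisto 0.43.0 against the AtRTD2 transcripts, and deposited estimated counts per gene, which were rounded to whole numbers here. The libraries were strand-specific total RNA after removal of ribosomal RNA. The strand setting of Kallisto is not given in the sources used here. Levels are CPM with TMM factors over 24 libraries. Each comparison was fitted with edgeR 4.0.16 (quasi-likelihood, two-sided) on its own libraries, after a filter with a minimum count of 10 (filterByExpr), with Benjamini-Hochberg adjustment over all genes tested. Interactions were called at an adjusted p of at most 0.05 alone. Standard errors were derived from the fold change and its F statistic. Alternatives were DESeq2 1.42.0 or its size factors, edgeR's exact test, no filter, a replicate block, 4 groups in 1 fit, leaving out genes of organelles and ribosomal RNA, a log2 cutoff of 0.05 and each library left out. These alternatives were read for the members only. The fits were tested on simulated counts, with 200 genes changed by a log2 fold change of 1 up or down. Of changed genes with a mean count under 200, 6 of 61 were recovered for EST against DMSO at 4 h. For BAP against DMSO at 24 h it was 43 of 83, and for the interaction at 24 h 12 of 72.

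Named genes were the 10 members, their partner lists and the 5 genes most like GIF1 and the most abundant GRF. The members and lists were chosen with earlier results of these data known. Same-numbered libraries deviated together, every correlation being over 0.1, in 4 of 12 pairs of groups: BAP and DMSO at 24 h, and EST + BAP with each of BAP, EST and DMSO at 4 h. Replicates differed beyond sampling noise. miR396 sites were searched with edlib 1.3.9 in RefSeq transcripts (TAIR10.1), and copies with blastn 2.17.0, which found no near-identical copy of a member. AT2G22850, which overlaps GRF1, AT2G08795, which overlaps GRF3, and AT5G08015, which overlaps GRF7, were not analysed here.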

Additional observations from a re-analysis of the deposited data

How the results depend on the processing

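Of the 4 called differences, only GIF1 in EST + BAP against DMSO at 24 h kept its call in every alternative run, and no difference with an unadjusted p under 0.05 changed direction. In EST + BAP against EST at 4 h, 0 members were called, against 1 with DESeq2, 1 with the replicate block, 1 with the exact test (GRF9 each time) and 2 with the 4 groups in 1 fit (GRF9 and GRF6). That 1 fit also called 1 member in EST against DMSO at 24 h (GIF1, against 0) and 2 in EST + BAP against DMSO at 24 h (GIF1 and GRF9, against 1). GRF6 and, at 24 h, GRF9 did not pass the filter in those comparisons on their own libraries. At 4 h GRF9 passed it through the EST libraries, where it is high. These calls of GRF6 and GRF9 are therefore no support for a difference. DESeq2 called 0 members in BAP against DMSO and 0 in EST + BAP against BAP at 24 h, against 1 each. The replicate block left 0 members called in EST + BAP against EST at 24 h, against 1 (GRF3, -0.54, adjusted p = 0.0514 in edgeR). Deviations of same-numbered libraries of these groups correlated at -0.006 to 0.075, and the labels do not say whether a number marks a shared run. The block changed no other call than those of GRF3 here and GRF9. The cause of these changes was not tested. With each library left out in turn, 0 to 1 members were called in BAP, and 0 to 1 in EST + BAP, against DMSO at 4 h, 0 to 1 in EST + BAP against EST at 4 h, 0 to 1 in BAP against DMSO at 24 h, 0 to 2 in EST + BAP against BAP at 24 h, 0 to 1 in EST + BAP against EST at 24 h and 0 to 1 for the BAP difference between times. The other counts of members called did not change when a library was left out. GRF5, GRF6, GRF7 and GRF9 were limited by depth, with medians of 4, 5.5, 2 and 12 counts per library. The medians of GRF2, GRF3, GRF4, GRF8 and GIF1 were 78, 93.5, 56.5, 43 and 99.5 counts. At such counts a missing call does not show that a level was unchanged.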
